A study of Mus musculus with 24 samples.

Results

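The 33 genes described here form the heat shock and chaperone system of the cell, set as a named list of HSP70, HSP90, small HSP, DNAJ, chaperonin and co-chaperone genes together with Hsf1. They were found by symbol among the 57126 gene identifiers of the count table. All 33 had counts in every library and passed the filter on low counts, which left 13125 genes to test. Of the 33, 29 act mainly in the cytosol or nucleus, and the other 4, Hspa9, Hspd1, Hspe1 and Dnaja3, encode chaperones of mitochondria.

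Fragments of ileum from male wild-type C57BL/6J mice were incubated for 8 h with tCDCA, an extract or solvent, and RNA was read near its polyadenylated end with QuantSeq. The groups were tCDCA, the taurine conjugate of chenodeoxycholic acid, with 4 libraries, Asbt-/- CME(-) with 3, Asbt-/- CME(+) with 4, WT CME(-) with 4, WT CME(+) with 3, and the solvent DMSO with 3. CME is an extract that the labels do not spell out, CME(+) was taken as the form depleted of bile acids, and WT or Asbt-/- is the genotype of the extract's donor. Asbt is the ileal bile acid carrier encoded by Slc10a2, and because the treated tissue was wild type in all 21 libraries there was no deleted gene to check. The label of tCDCA and CME(-) replicates 2 to 4 gives 200 µM, and that of the used DMSO libraries 0.6%. Replicate 1 of each group carries another column prefix, taken here as a first sequencing run, and the rest belong to a second run. The DMSO library of the first run was removed by the submitters for its DMSO content of 0.5%, and 1 library each of Asbt-/- CME(-) and WT CME(+) for poor mapping. Whether the libraries of a group stem from different animals is not stated, and p-values therefore reflect only the variation among libraries, part of which may be technical.

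Chaperones bind unfolded protein chains and let them reach or regain their shape. HSP70 proteins work with J-domain partners (the DNAJ proteins) and with HSP110 proteins that exchange their nucleotide, HSP90 completes the folding of kinases and receptors with a set of co-chaperones, and the ring-shaped chaperonin TRiC folds actin and tubulin. HSF1, the transcription factor of the heat shock response, binds as a trimer to heat shock elements, which are runs of alternating GAA and TTC units spaced by a pair of bases, and raises Hspa1a, Hspa1b, Hsph1, Dnajb1 and Hspb1 among others. Bile acids are detergents as well as ligands of the nuclear receptor FXR, and the ileum meets them at high concentration.

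Promoters are shown because Hspa1b and Hsph1, the members called between the extract forms below, are known HSF1 targets. RefSeq windows of build GRCm38.p6, each 300 bases long from 250 before to 50 after a transcription start, had an entry for 26 of the 33 members (35 windows). Members without an entry were Hsf1, Hspa8, Hspa9, Hsp90aa1, Hsp90ab1, St13 and Cct4. The windows were searched for GAANNTTC and TTCNNGAA, each of which is its own reverse complement, so that 1 search covers both strands, and for overlaps of these motifs by 3 letters, which make 3 alternating units. At least a pair of units lay in a window of 15 members (57.7% of 26), against 17% of the 27025 genes in the table. Runs of 3 units lay in 5 members (19.2%), Hspd1, Hspe1, Hsph1, Dnajb6 and Chordc1, against 0.662% of all genes. Counted by window, 15.1% of the 32851 windows held a pair and 0.603% held 3 units. A match describes the letters in the window only.

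The 5 windows below are those of Hsph1 and the Hspa1 pair, which carry the extract result, and of Hspe1 and Chordc1, which hold the longest runs of units. Capitals mark the matches, and all are written on the gene's strand.
Hsph1: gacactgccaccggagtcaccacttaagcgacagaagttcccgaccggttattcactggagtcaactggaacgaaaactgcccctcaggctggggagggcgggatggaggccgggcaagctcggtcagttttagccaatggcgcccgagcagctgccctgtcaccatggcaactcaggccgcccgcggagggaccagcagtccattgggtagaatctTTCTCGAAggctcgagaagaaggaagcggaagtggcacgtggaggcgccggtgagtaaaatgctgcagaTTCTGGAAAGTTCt
Hspa1a: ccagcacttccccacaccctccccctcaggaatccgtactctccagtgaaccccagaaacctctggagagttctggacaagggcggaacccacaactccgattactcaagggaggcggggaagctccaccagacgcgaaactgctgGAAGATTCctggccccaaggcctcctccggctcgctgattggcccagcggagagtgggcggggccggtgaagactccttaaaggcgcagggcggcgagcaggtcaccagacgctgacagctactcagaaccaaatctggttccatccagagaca
Hspa1b: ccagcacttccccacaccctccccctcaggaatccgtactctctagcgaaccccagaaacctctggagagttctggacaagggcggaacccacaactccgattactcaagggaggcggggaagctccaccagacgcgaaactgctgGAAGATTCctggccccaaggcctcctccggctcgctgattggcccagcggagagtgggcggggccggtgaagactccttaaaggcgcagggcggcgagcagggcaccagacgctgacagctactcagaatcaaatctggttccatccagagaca
Hspe1: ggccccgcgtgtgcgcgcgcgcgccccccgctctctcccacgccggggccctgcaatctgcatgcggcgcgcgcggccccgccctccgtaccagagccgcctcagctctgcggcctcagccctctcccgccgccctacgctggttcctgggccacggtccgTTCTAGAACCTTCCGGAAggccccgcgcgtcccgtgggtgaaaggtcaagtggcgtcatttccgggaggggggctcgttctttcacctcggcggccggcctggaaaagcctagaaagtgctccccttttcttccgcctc
Chordc1: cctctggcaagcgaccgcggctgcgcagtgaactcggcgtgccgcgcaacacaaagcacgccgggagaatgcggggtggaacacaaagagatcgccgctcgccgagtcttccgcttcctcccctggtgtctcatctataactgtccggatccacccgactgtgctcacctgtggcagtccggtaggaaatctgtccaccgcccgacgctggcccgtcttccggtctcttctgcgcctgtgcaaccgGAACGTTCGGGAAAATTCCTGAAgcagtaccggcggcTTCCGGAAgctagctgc
The Hsph1 window is at chr5:149636287-149636586 (minus strand), with a pair from -33 to -26 and a run of 3 units from 37 to 49 counted from the start. Hspa1a, at chr17:34972107-34972406, and Hspa1b, at chr17:34959189-34959488, both on the minus strand, have the same base at 296 of 300 positions and share a pair from -104 to -97. Hspe1, at chr1:55087898-55088197 (plus strand), has its run from -89 to -72. This window shares 285 bases with the second listed start of Hspd1, which lies on the other strand, so both genes hold the same match. Chordc1, at chr9:18292017-18292316 (plus strand), has a run from -4 to 19 across the start and a further pair from 34 to 41. Dnaja3, Cct3 and Cct8, which are called with tCDCA in the comparisons that follow, had no match in their windows, while Fkbp4 had a pair from -151 to -144. Hspa8 and Hsp90ab1, also called with tCDCA, had no entry. Dnajb1, named above as raised by HSF1, had no match in either of its windows. Hspa4, Hspa4l, Dnaja2, Ahsa1, Stip1, Tcp1 and Cct7 had none either. The lack of a match therefore cannot tell HSF1 targets from other genes here.

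**Figure D1:**
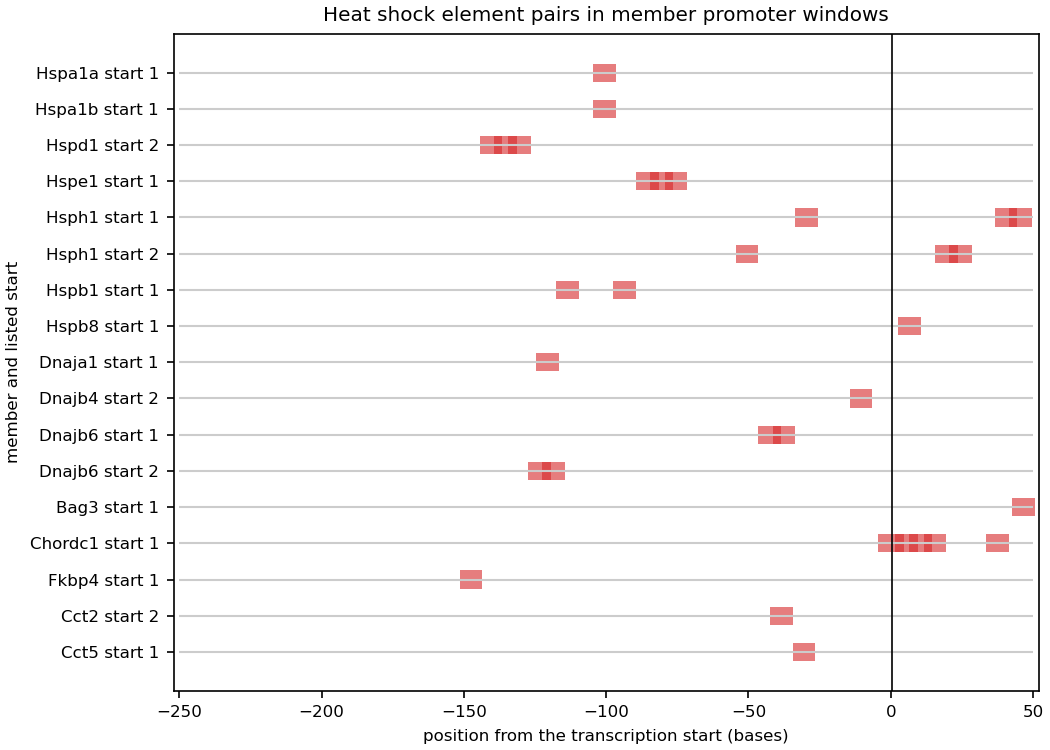
Position of each pair of alternating units (red boxes, darker where boxes overlap in a run) along the promoter windows that hold any, in bases from the transcription start, with each listed start of a member on its own row. Runs of 3 units stand in windows of Hspd1, Hspe1, Hsph1, Dnajb6 and Chordc1, and the Hspa1a and Hspa1b matches fall at the same place.

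Libraries held 2.76 to 5.60 M counts, of which the 33 members took 0.306 to 0.678%, and the lowest count of a member in a library was 17. Replicates of a group correlated at r = 0.882 to 0.961 across genes. Mitochondrial rRNA took 6.78 to 8.29% of counts in the first run. In the second run it took 24.6 to 31.9% in CME(-) libraries, 17.6 to 22.0% in CME(+) libraries and 19.5 to 34.6% in DMSO libraries, with DMSO replicate 3 the highest. Of the tCDCA libraries, replicate 3 stood apart at 5.29%, the other 2 second-run libraries being at 28.1 and 33.1%. Among the 16 second-run libraries DMSO replicate 3 had the lowest level of 11 members and tCDCA replicate 3 the highest level of 7. Results on the members that rest on either library are given with and without it. All enterocyte markers but Lct, which had no count in 7 libraries, were detected in every library.

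Levels are given as CPM, counts scaled to library size with TMM factors, and a 3' tag count does not scale with transcript length. Levels of removed libraries come from a separate scaling over all 24 libraries, so small gaps between them and used libraries cannot be read. Over all 21 libraries Hsp90ab1, the constitutive cytosolic HSP90, had the highest median level of any member at 768 CPM. Hspa1b followed at 459.7 CPM, Hspa1a at 379 CPM, Hsp90aa1 at 376 CPM and Hspb1 at 287 CPM. The lowest were Ahsa1 at 16.8, Dnaja3 at 12.0 and Hsf1 at 8.31 CPM. Hspa8, the constitutive HSP70, had a median of 121 CPM, below the inducible pair at 837 CPM for the sum. Hspa8 has processed pseudogenes, and how reads shared with them were counted is not known here, so its level is uncertain. Hspa1a and Hspa1b encode near-identical proteins from near-identical mRNAs, so reads can have been divided between them, and the sum is the safer value. Hspa1b held 49.6 to 54.9% of the sum in the first run and 51.2 to 60.6% in the second.

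Many levels differed between the runs, a split read from the column prefixes. Of the 33 members 21 differed between second-run and first-run libraries at an adjusted p under 0.05 in edgeR's quasi-likelihood test (17 higher and 4 lower in the second run), in a comparison where 37.3% of all genes did. Hspa1b was higher in the second run by 1.58 log2 units and Hspa1a by 1.36, and the summed pair ran from 638 to 1828 CPM in the second run against 296 to 415 CPM in the first without overlap. Cct4 was lower in the second run by 0.72. The runs did not overlap for 5 members, Hspa1a, Hspa1b, Dnaja2, Dnajb4 and Cct4. Because DMSO has no used first-run library, means below are of second-run libraries, with the first-run value beside them, and the model carries a term for run. Tissue markers differed between the runs too. In the second and the first run the T and NK cell markers summed to 4.44 to 18.2 and 58.4 to 82.8 CPM, those of B and plasma cells to 93.1 to 158 and 338 to 472 CPM, of myeloid cells to 64.3 to 108 and 189 to 240.5 CPM, and of fibroblasts to 260.3 to 521 and 644 to 900.4 CPM. Jchain, with a mean of 190 CPM over all used libraries, made up nearly all of the B and plasma cell sum, and Mzb1 had no count. Gzma at 12.7 and Trbc2 at 5.63 CPM led the T and NK cell markers, and Cd8a had no count in 12 libraries. The part of these marker differences in the member differences was not tested.

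Compared with DMSO, tCDCA raised 5 members and lowered none at an adjusted p under 0.05. That was 15.2% of members, where 5.68% of all genes were called and 2.52% were called higher. They were Hspa8, Hsp90ab1, the mitochondrial J-protein gene Dnaja3 and the TRiC subunit genes Cct3 and Cct8. Asbt-/- CME(-) raised 3 members, Hspa8, Hsp90ab1 and Dnaja3, where 0.952% of all genes were called and 0.381% were higher. Asbt-/- CME(+) also raised 3, Hspa8, Hspd1 and Fkbp4, where 2.31% of all genes were called and 1.39% were higher. WT CME(-) and WT CME(+) raised none, where 0.297% and 0.175% of all genes were called. At an unadjusted p under 0.05 there were 12 members with tCDCA (17.7% of all genes), 16 with Asbt-/- CME(-) (12.4%), 11 with Asbt-/- CME(+) (15.2%), 11 with WT CME(-) (9.38%) and 5 with WT CME(+) (10.0%). DESeq2 called 2 members with WT CME(-), Hspd1 and Hsp90ab1, and 1 with WT CME(+), Cct3, its share of all genes not being given here. These 5 comparisons share the same 3 DMSO libraries, so their values for a gene are not independent.

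The calls against DMSO did not hold without DMSO replicate 3, which leaves 2 DMSO libraries, while the log2 changes of the called members were then between 0.40 and 1.40. Without it no member was called in any of the 5 comparisons with edgeR, and the same held when the removed DMSO replicate 1 was added. The tCDCA count was 2 without tCDCA replicate 3, and 3 without DMSO replicate 2, tCDCA replicate 4, WT CME(+) replicate 3 or Asbt-/- CME(+) replicate 1, 2 or 3. The Asbt-/- CME(-) count was 0 without Asbt-/- CME(-) replicate 1 or 4, 5 without tCDCA replicate 3, and 1 without Asbt-/- CME(-) replicate 2, WT CME(-) replicate 1 or 2, WT CME(+) replicate 3 or Asbt-/- CME(+) replicate 2, 3 or 4. The Asbt-/- CME(+) count was 1 without its own replicate 2, 3 or 4, and WT CME(-) had 1 call without DMSO replicate 2. The direction of each of the 11 called changes was the same in every alternative fit, which says little for changes chosen by a small p in fits that share most libraries. The median log2 change of the members was 0.30 with tCDCA, 0.37 with Asbt-/- CME(-), 0.23 with Asbt-/- CME(+), 0.30 with WT CME(-) and 0.07 with WT CME(+), where the medians of all genes lay between -0.02 and 0.00. In the first run, set against the removed DMSO library without a test, the median difference of the members was 0.07 for tCDCA, 0.18 for Asbt-/- CME(-), 0.00 for Asbt-/- CME(+), 0.03 for WT CME(-) and 0.10 for WT CME(+).

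**Figure D2:**
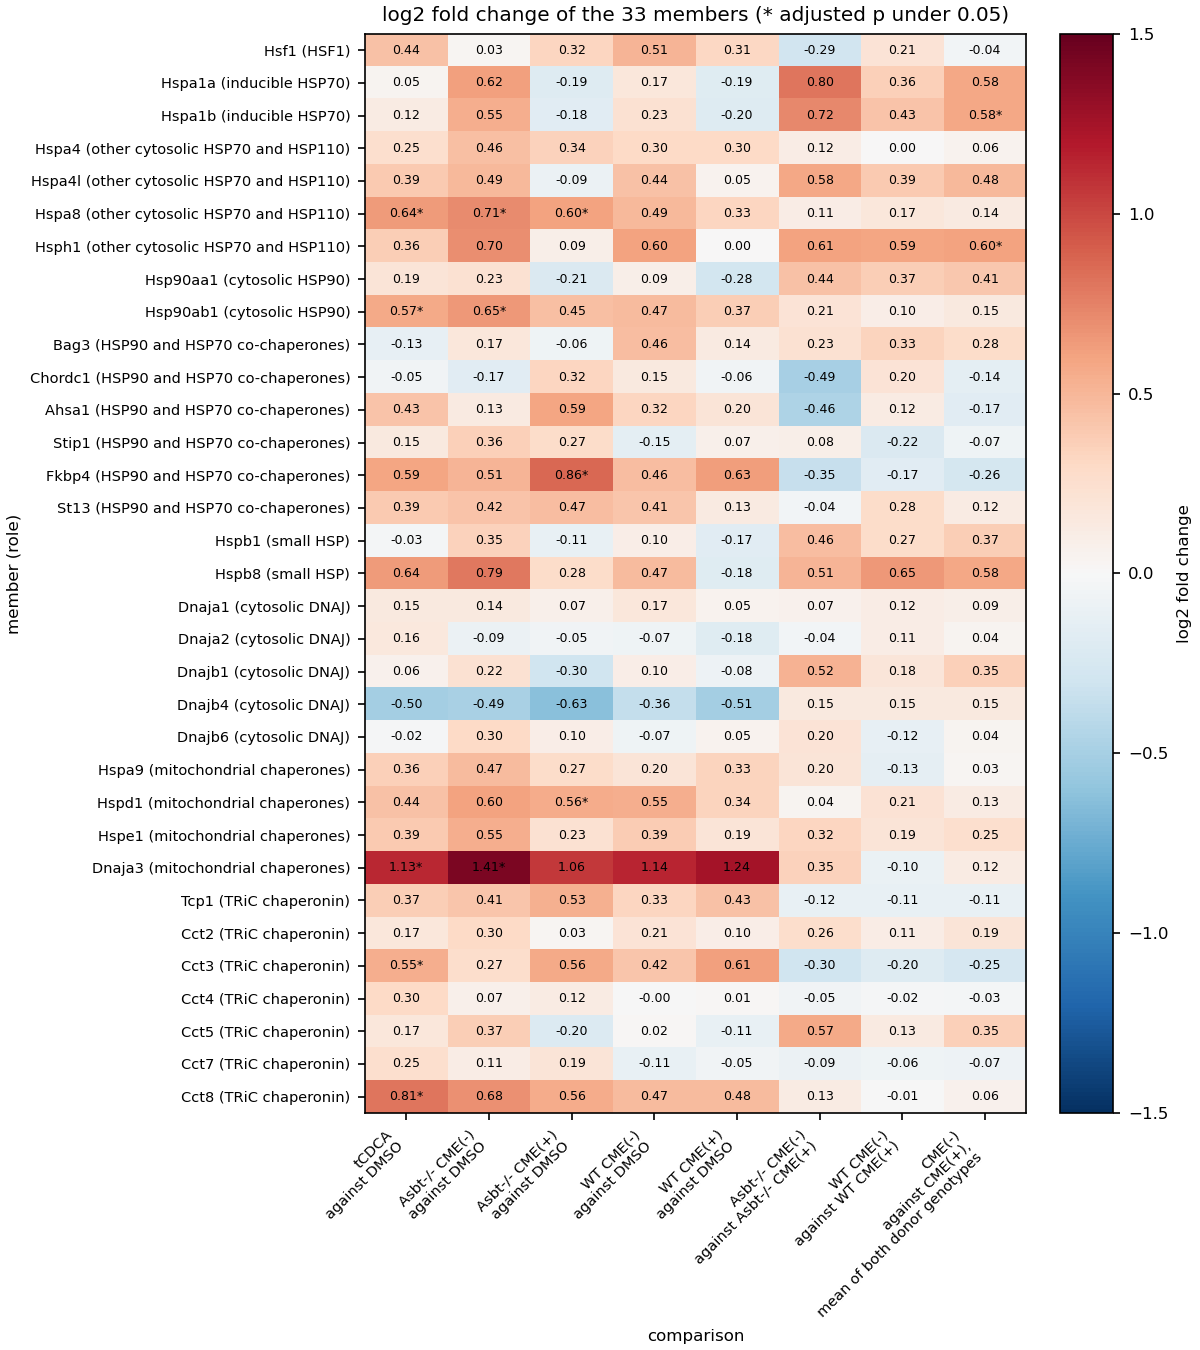
log2 fold change of each member (rows, by role) in 8 comparisons (columns), from the model on 21 libraries, with an asterisk where the adjusted p was under 0.05. In the left 5 columns 17 members are positive throughout, among them Hspa8, Hsp90ab1, the mitochondrial chaperones, Tcp1, Cct2, Cct3, Cct8, Hsf1 and Hsph1. The J-protein gene Dnaja2 is positive in 1 of these columns and Dnajb4 in none. The asterisks of the rightmost column fall on Hspa1b and Hsph1.

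Hspa8 encodes the constitutive HSP70, HSC70. Its second-run levels were 120.1, 147 and 132 CPM with tCDCA, 130.3 and 169.8 with Asbt-/- CME(-), 147, 126 and 131 with Asbt-/- CME(+), 121, 131 and 130.2 with WT CME(-), 104 and 113 with WT CME(+), and 107, 68.9 and 89.5 with DMSO. Every treated library but 1 of WT CME(+) lay above all 3 DMSO libraries, and DMSO replicate 3 was the lowest of all. The first-run libraries had 125 CPM with tCDCA, 109 with Asbt-/- CME(-), 108 with Asbt-/- CME(+), 94.7 with WT CME(-) and 93.9 with WT CME(+). The removed DMSO library had 119.9 on its separate scaling, close to the value of tCDCA. The log2 change was 0.64 ± 0.16 (SE) with tCDCA (adjusted p = 0.0123), 0.71 ± 0.17 with Asbt-/- CME(-) (adjusted p = 0.0324) and 0.60 ± 0.16 with Asbt-/- CME(+) (adjusted p = 0.0374). Without DMSO replicate 3 these were 0.49 (adjusted p = 0.155), 0.55 (0.268) and 0.45 (0.333).

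Hsp90ab1, the constitutive cytosolic HSP90, was the most abundant member. It had 902, 1026 and 822 CPM with tCDCA, 946 and 964 with Asbt-/- CME(-), 779, 831 and 787 with Asbt-/- CME(+), 833, 768 and 857 with WT CME(-), 728 and 708 with WT CME(+), and 561, 536 and 680.3 with DMSO in the second run. No treated second-run library overlapped the DMSO libraries. First-run levels were 647 CPM with tCDCA, 737 with Asbt-/- CME(-), 696 with Asbt-/- CME(+), 688 with WT CME(-) and 719.7 with WT CME(+). The removed DMSO library had 625 CPM on its separate scaling, close to the value of tCDCA. It rose by 0.57 ± 0.15 log2 units with tCDCA (adjusted p = 0.0198) and by 0.65 ± 0.17 with Asbt-/- CME(-) (adjusted p = 0.0412), and the values without DMSO replicate 3 were 0.51 (0.130) and 0.59 (0.223). Hsp90aa1, the stress-inducible cytosolic HSP90, was at 0.19 log2 units with tCDCA and 0.23 with Asbt-/- CME(-) and was not called.

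Dnaja3 encodes the J-protein that works with HSPA9 in mitochondria. It was low throughout, at 9.16, 23.0 and 9.11 CPM with tCDCA, 18.1 and 12.5 with Asbt-/- CME(-), 14.7, 14.0 and 10.0 with Asbt-/- CME(+), 18.6, 10.8 and 11.8 with WT CME(-), 15.6 and 10.3 with WT CME(+), and 5.50, 5.94 and 6.65 with DMSO. The 3 DMSO libraries were the lowest of the second run, and tCDCA replicate 3 was the highest. In the first run the levels were 11.3 CPM with tCDCA, 17.4 with Asbt-/- CME(-), 12.0 with Asbt-/- CME(+), 12.0 with WT CME(-) and 16.8 with WT CME(+), but the removed DMSO library had 14.1 CPM, inside the treated range. Its change against the DMSO libraries used was 1.13 ± 0.35 log2 units with tCDCA (adjusted p = 0.0442) and 1.41 ± 0.37 with Asbt-/- CME(-) (adjusted p = 0.0497), the largest of any member in these 2 comparisons. Without tCDCA replicate 3 the tCDCA change was 0.68 (adjusted p = 0.314). Without DMSO replicate 3 the changes were 1.12 (adjusted p = 0.152) with tCDCA and 1.40 (adjusted p = 0.196) with Asbt-/- CME(-).

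Of the other mitochondrial members, Hspd1 encodes the chaperonin HSP60 and Hspe1 its lid HSP10, and Hspa9 the mitochondrial HSP70. Hspd1 had 115, 99.5 and 108 CPM with tCDCA, 123 and 127 with Asbt-/- CME(-), 125, 127 and 119 with Asbt-/- CME(+), 101, 127 and 134 with WT CME(-), 94.5 and 101 with WT CME(+), and 99.0, 73.8 and 70.9 with DMSO in the second run. First-run levels were 100.5 with tCDCA, 102 with Asbt-/- CME(-), 92.0 with Asbt-/- CME(+), 97.1 with WT CME(-) and 95.2 with WT CME(+), against 90.1 CPM in the removed DMSO library. In edgeR's model it passed with Asbt-/- CME(+), by 0.56 ± 0.16 log2 units (adjusted p = 0.0481), and without DMSO replicate 3 the change was 0.50 (adjusted p = 0.286). DESeq2 also called it with tCDCA (0.44, adjusted p = 0.0448), Asbt-/- CME(-) (0.60, 0.0203) and WT CME(-) (0.55, 0.0362). In edgeR the value with Asbt-/- CME(-) was as high at 0.60 (adjusted p = 0.0781), so a difference between these extracts cannot be read from the calls. Hspe1 was at 0.39 with tCDCA, 0.55 with Asbt-/- CME(-) and 0.23 with Asbt-/- CME(+), and Hspa9 at 0.36, 0.47 and 0.27 in the same groups, none of them called.

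Among the 7 TRiC subunit genes, Cct3 and Cct8 rose with tCDCA and none passed with an extract in edgeR's model. DESeq2 also called Cct3 with Asbt-/- CME(+) (0.56, adjusted p = 0.0223) and WT CME(+) (0.61, 0.0494), and edgeR called it with Asbt-/- CME(+) without the count filter (0.58, 0.0465). Cct8 had 100.5, 143 and 128 CPM with tCDCA, against 62.4, 49.0 and 98.6 with DMSO, and all 3 tCDCA libraries lay above the DMSO libraries. Its levels were 104 and 134 CPM with Asbt-/- CME(-), 75.9, 130.1 and 106 with Asbt-/- CME(+), 74.9, 77.7 and 136 with WT CME(-) and 81.4 and 101 with WT CME(+), each group overlapping DMSO except Asbt-/- CME(-). First-run levels were 118 with tCDCA and 99.3 to 109 with the extracts, against 109.2 in the removed DMSO library. The log2 change with tCDCA was 0.81 ± 0.23 (adjusted p = 0.0291). It was 0.61 (adjusted p = 0.212) without DMSO replicate 3 and 0.73 (adjusted p = 0.113) without tCDCA replicate 3.

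Cct3 had 173, 222 and 203 CPM with tCDCA, 146 and 191 with Asbt-/- CME(-), 227, 201 and 203 with Asbt-/- CME(+), 205, 180.2 and 149 with WT CME(-), 213 and 180.4 with WT CME(+), and 171, 106 and 132 with DMSO. The tCDCA libraries stood just above the highest DMSO library. In the first run it had 139 CPM with tCDCA, 107 with Asbt-/- CME(-), 121 with Asbt-/- CME(+), 133 with WT CME(-) and 160.1 with WT CME(+), against 130.2 in the removed DMSO library. Its change of 0.55 ± 0.17 log2 units with tCDCA (adjusted p = 0.0432) was 0.40 (0.331) without DMSO replicate 3 and 0.50 (0.0768) without tCDCA replicate 3. The other subunit genes, Tcp1, Cct2, Cct4, Cct5 and Cct7, were between 0.17 and 0.37 with tCDCA and were not called.

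Fkbp4 encodes FKBP52, an HSP90 co-chaperone of steroid receptors. It had 131, 208 and 181 CPM with tCDCA, 144 and 172 with Asbt-/- CME(-), 198, 199 and 219 with Asbt-/- CME(+), 185, 139.6 and 122 with WT CME(-), 174 and 151 with WT CME(+), and 108, 76.2 and 148 with DMSO in the second run. The Asbt-/- CME(+) libraries were well above the DMSO libraries, whereas tCDCA, Asbt-/- CME(-) and WT CME(-) overlapped them. In the first run all libraries were close, at 86.7 CPM with tCDCA, 93.6 with Asbt-/- CME(-), 112 with Asbt-/- CME(+), 96.5 with WT CME(-) and 113 with WT CME(+), against 105 in the removed DMSO library. It rose with Asbt-/- CME(+) by 0.86 ± 0.19 log2 units (adjusted p = 0.00724), and the value without DMSO replicate 3 was 0.65 (adjusted p = 0.148). With tCDCA it was at 0.59 (adjusted p = 0.0538). The other co-chaperone genes Ahsa1, which stimulates the HSP90 ATPase, Stip1 and St13, which link HSP70 and HSP90, Chordc1 and Bag3 were not called, with Ahsa1 at 0.43, St13 at 0.39, Stip1 at 0.15, Chordc1 at -0.05 and Bag3 at -0.13 with tCDCA.

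**Figure D3:**
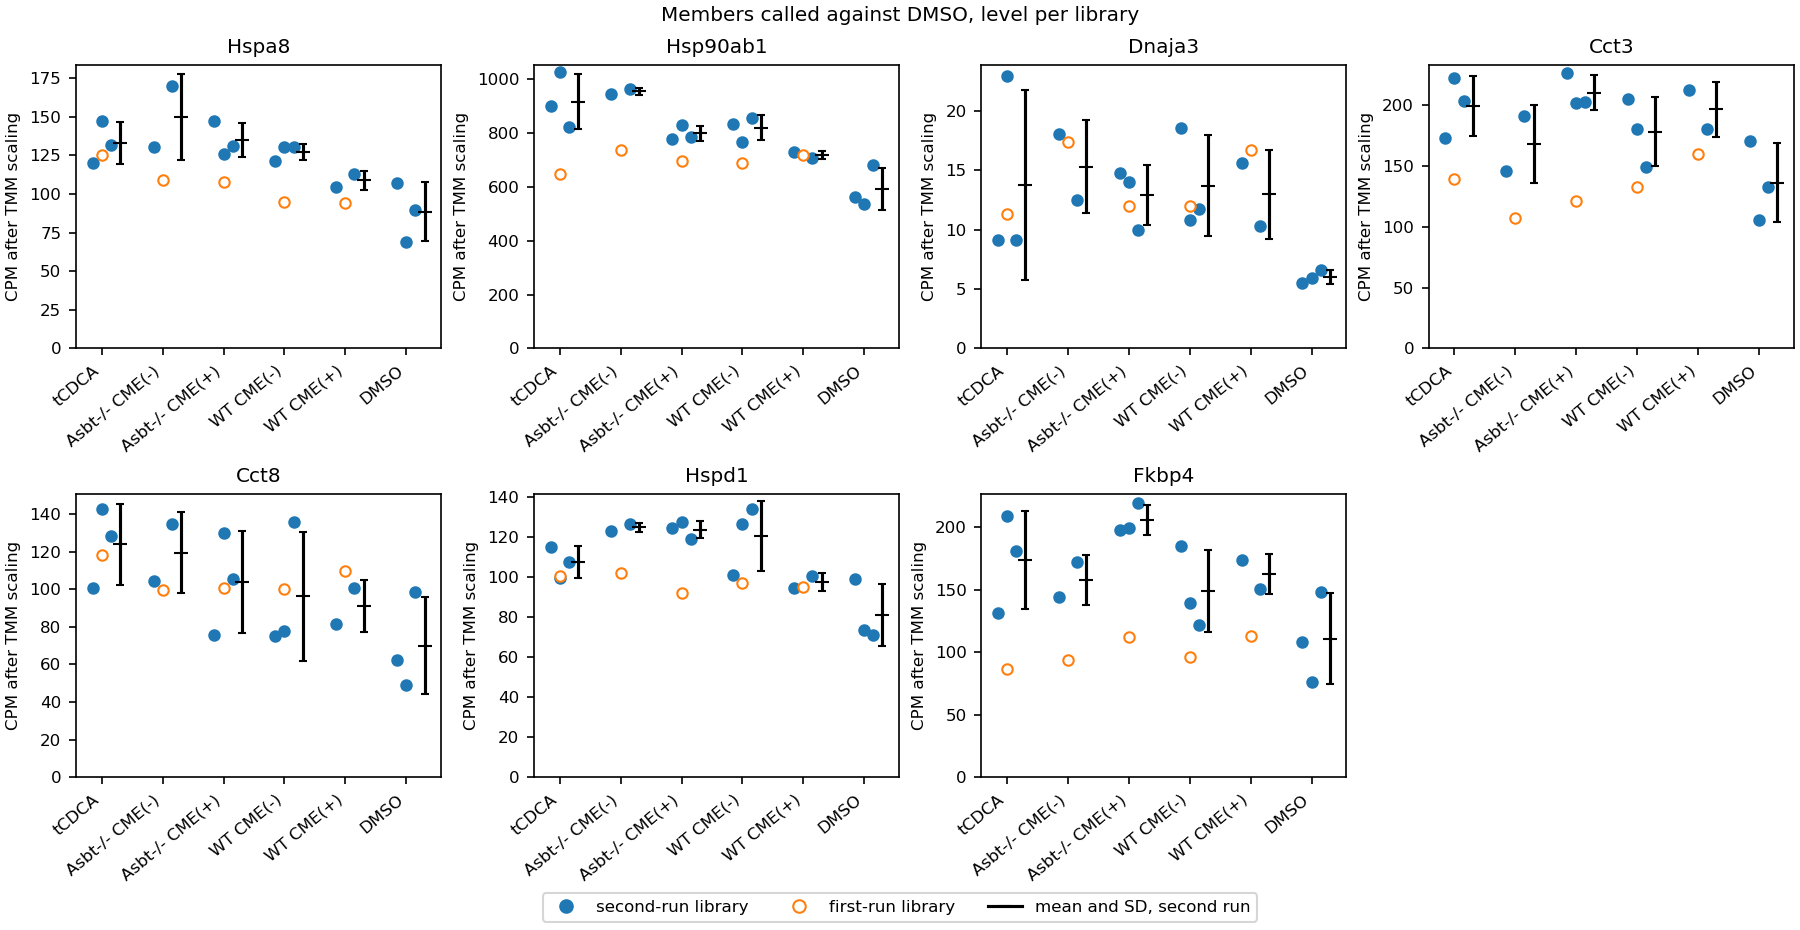
Level in each library (CPM after TMM scaling, axes from 0) of the 7 members called against DMSO, by group, with second-run libraries as filled points, first-run libraries as open points, and the second-run mean and SD beside them. The 3 DMSO libraries of Dnaja3 and Hsp90ab1 lie below every treated second-run library, and tCDCA replicate 3 is the single high point of Dnaja3 at 23.0 CPM.

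The heat shock factor gene and the inducible HSP70 pair did not pass against DMSO. Hsf1 had 10.9, 10.2 and 14.1 CPM with tCDCA, 6.53 and 9.02 with Asbt-/- CME(-), 8.04, 14.0 and 6.85 with Asbt-/- CME(+), 13.3, 11.5 and 12.6 with WT CME(-), 8.36 and 6.51 with WT CME(+), and 7.95, 7.34 and 8.31 with DMSO. First-run levels of Hsf1 were 4.76 with tCDCA, 5.28 with Asbt-/- CME(-), 6.55 with Asbt-/- CME(+), 4.73 with WT CME(-) and 8.91 with WT CME(+), so tCDCA and WT CME(-), which were above DMSO in the second run, were the lowest in the first. The summed Hspa1 pair was at 0.09 log2 units with tCDCA (95% interval -0.29 to 0.46), 0.58 with Asbt-/- CME(-) (0.17 to 0.98, adjusted p = 0.173), -0.18 with Asbt-/- CME(+) (-0.56 to 0.20), 0.21 with WT CME(-) (-0.17 to 0.59) and -0.19 with WT CME(+) (-0.60 to 0.22). Dnajb1, the J-protein that HSF1 induces with HSP70, was at 0.06 with tCDCA and Hspb1, a small HSP, at -0.03. The other cytosolic J-protein genes Dnaja1, Dnaja2 and Dnajb6 were at 0.15, 0.16 and -0.02 with tCDCA, and Hspa4, an HSP110 gene, at 0.25, none of them called.

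Counted without a test, 11 members had all second-run tCDCA libraries above all DMSO libraries (9.33% of all genes), 20 with Asbt-/- CME(-) (12.6%), 13 with Asbt-/- CME(+) (12.3%), 10 with WT CME(-) (6.71%) and 5 with WT CME(+) (12.4%). Hspa1a and Hspa1b were among 3 members that lay wholly below DMSO with WT CME(+) (12.1% of all genes) and with Asbt-/- CME(+) (11.2%). The third was Hsp90aa1 with WT CME(+) and Dnajb1 with Asbt-/- CME(+). Dnajb4, a cytosolic J-protein gene, was the only member below 0 in all 5 comparisons, from -0.63 to -0.36, and was not called. Of the 33 members 28 were above 0 with tCDCA (50.2% of all genes), 30 with Asbt-/- CME(-) (49.2%) and 23 with Asbt-/- CME(+) (48.8%). With WT CME(-) 27 were above 0 (48.7%) and with WT CME(+) 22 (48.5%). The comparisons share their DMSO libraries, so these counts are not independent.

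Markers of cell types moved beside these calls. The 12 enterocyte markers summed to 2204 to 4201 CPM in second-run tCDCA libraries and 7244 to 12132 CPM in DMSO libraries, and 8 of the 12 were lower with tCDCA at an adjusted p under 0.05. The 6 Paneth cell markers summed to 31165 to 48439.9 CPM with tCDCA and 23130.0 to 26933 CPM with DMSO, with 3 of 6 higher. With Asbt-/- CME(-) the sums were 4297 to 5015 CPM for enterocytes, with 0 of 12 called, and 35757 to 55580.4 CPM for Paneth cells, with 1 of 6 higher. With Asbt-/- CME(+) they were 3568 to 5748 CPM for enterocytes, with 0 of 12 called, and 25958 to 28793 CPM for Paneth cells, with 0 of 6 called. The 7 fibroblast markers summed to 260.3 to 490 CPM in the treated second-run libraries and 495 to 521 CPM in DMSO libraries, with 1 of 7 lower with Asbt-/- CME(+) and 0 called with the other 4 treatments. In whole tissue fewer cells of a type and less RNA per cell cannot be told apart. The part of these shifts in the member changes was not tested.

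The extract forms were then compared, CME(-) against CME(+), which, if CME(+) is the depleted form, asks what bile acids in an extract add. Averaged over both donor genotypes, in edgeR's model, 2 members rose with CME(-) at an adjusted p under 0.05, where 0.434% of all genes were called and 0.152% were higher. They were Hspa1b, by 0.58 ± 0.13 log2 units or 1.49-fold (adjusted p = 0.0260), and Hsph1, the HSP110 that recharges HSP70, by 0.60 ± 0.14 or 1.52-fold (adjusted p = 0.0334). The summed Hspa1 pair rose by 0.58 ± 0.13 (95% interval 0.31 to 0.84, adjusted p = 0.0322). Next by p were Hspa1a at 0.58 (adjusted p = 0.0526), Hsp90aa1 at 0.41 (0.0929), Hspa4l, another HSP110 gene, at 0.48 (0.0984) and Hspb8, a small HSP, at 0.58 (0.238). At an unadjusted p under 0.05 there were 11 members, 9 of them higher, where 9.79% of all genes had such a p. No member was lower at the adjusted threshold, and the lowest values were Fkbp4 at -0.26 and Cct3 at -0.25. The median log2 change of the members was 0.12, against 0.00 for all genes.

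Hspa1b had 936 and 638 CPM with Asbt-/- CME(-), against 442, 363 and 459.7 with Asbt-/- CME(+), in the second run. With WT extracts it had 467, 618 and 643 CPM with CME(-), against 364 and 457 with CME(+). Every CME(-) library of either donor genotype thus lay above every CME(+) library. The first-run pairs were 205 CPM against 169 for Asbt-/- and 208 against 162 for WT, in the same order at a far lower level. Asbt-/- CME(-) replicate 2 had the highest level of any library for both Hspa1a and Hspa1b.

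Hspa1a had 893 and 592 CPM with Asbt-/- CME(-), against 372, 275 and 377 with Asbt-/- CME(+), and 323, 487 and 542 with WT CME(-), against 304 and 379 with WT CME(+). The WT groups overlapped through WT CME(-) replicate 2. First-run levels were 169 against 172 CPM for Asbt-/- and 208 against 163 for WT. Hspa1a had 444, 499 and 416 CPM with tCDCA and 142 in the first run, and 394, 399.7 and 459 with DMSO. Hspa1b had 682, 574 and 456 with tCDCA and 154 in the first run, and 527, 462 and 509 with DMSO, so that tCDCA lay near DMSO for both genes.

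The sum of the pair was 1828 and 1229.9 CPM with Asbt-/- CME(-), 815, 638 and 837 with Asbt-/- CME(+), 789.9, 1106 and 1185 with WT CME(-), 668 and 836 with WT CME(+), 1126, 1073 and 872 with tCDCA, and 921, 861 and 968 with DMSO. In the second run the CME(-) sums lay above or around those of DMSO and the CME(+) sums below them, but the intervals of the CME(+) changes given above include 0. First-run sums were 374 CPM against 341 for Asbt-/-, 415 against 326 for WT and 296 for tCDCA. The removed DMSO library had 293 on its separate scaling, so that CME(+) was not below DMSO there. Of the removed second-run libraries, Asbt-/- CME(-) replicate 3 had a sum of 1079 CPM and WT CME(+) replicate 2 one of 966 CPM, the second of these above WT CME(-) replicate 2.

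Hsph1 had 137 and 113 CPM with Asbt-/- CME(-), against 66.0, 66.9 and 80.3 with Asbt-/- CME(+). With WT extracts it had 84.3, 124 and 122 CPM with CME(-), against 69.8 and 70.1 with CME(+). No CME(-) library overlapped a CME(+) library in the second run, and the first-run pairs were 68.2 against 62.7 CPM for Asbt-/- and 71.8 against 51.95 CPM for WT. Levels with tCDCA were 138, 68.2 and 82.0 CPM in the second run and 56.3 in the first, and with DMSO they were 74.9, 81.8 and 59.6, with 41.8 in the removed DMSO library. The tCDCA value was 0.36 log2 units against DMSO and was not called.

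**Figure D4:**
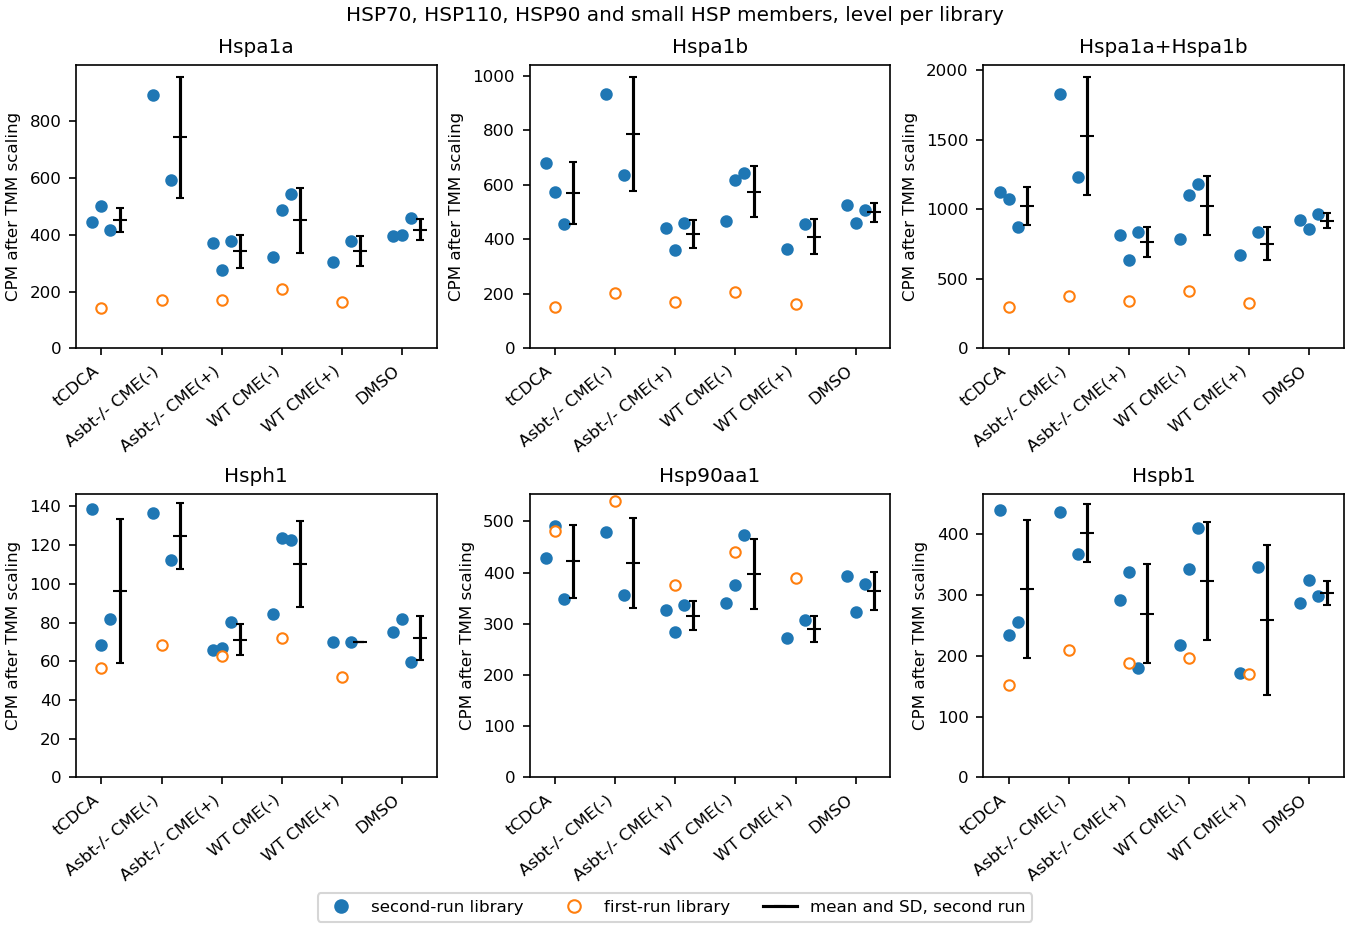
Level in each library (CPM after TMM scaling, axes from 0) of Hspa1a, Hspa1b, their sum, Hsph1, Hsp90aa1 and Hspb1 by group, drawn as filled points for the second run, open points for the first run, and the second-run mean and SD. The CME(-) points of Hspa1b, Hsph1 and Hsp90aa1 lie above the CME(+) points of both donor genotypes within the second run, and the first-run points of the Hspa1 pair lie at 296 to 415 CPM for the sum.

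In the second run 4 of the 33 members (12.1%) had all 5 CME(-) libraries above all 5 CME(+) libraries, Hspa1b, Hsph1, Hsp90aa1 and Hspe1, where 1.26% of all genes did, and no member had them all below, where 1.87% of all genes did. Hsp90aa1 had 480.1 and 357 CPM with Asbt-/- CME(-), against 327, 283 and 337 with Asbt-/- CME(+). With WT extracts it had 341, 376 and 474 CPM with CME(-), against 272 and 308 with CME(+). Hspe1 had 112 and 134 CPM with Asbt-/- CME(-), against 94.9, 82.7 and 94.4 with Asbt-/- CME(+), and 99.9, 105 and 120.0 with WT CME(-), against 88.7 and 94.6 with WT CME(+). The gaps were narrow for all 4 genes: the lowest CME(-) and highest CME(+) libraries had 467 and 459.7 CPM for Hspa1b, 84.3 and 80.3 for Hsph1, 341 and 337 for Hsp90aa1, and 99.9 and 94.9 for Hspe1.

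For replicates 2 to 4 the labels tie the CME(-) and CME(+) libraries of a number and genotype to the same donor animal, which leaves 4 labelled pairs, WT replicates 3 and 4 and Asbt-/- replicates 2 and 4. The first-run libraries carry no donor label and entered as 1 level for each donor genotype, a pairing that was assumed. WT CME(-) replicate 2 and Asbt-/- CME(+) replicate 3 have no used partner and were left out where this block was used. A fit of the 4 extract groups with this replicate block called 5 members, all higher. They were Hspa1b at 0.58 (adjusted p = 0.00701), Hsph1 at 0.63 (0.00878), Hspb1 at 0.54 (0.0383), Hspa1a at 0.58 (0.0453) and Hsp90aa1 at 0.41 (0.0494). The share of all genes called in this fit is not given here, so its count has no background beside it. With the replicate number as a block over all 6 groups no member was called, Hspa1b being at 0.54 (adjusted p = 0.0665) and Hsph1 at 0.58 (0.0708). With no run term none was called either (0.64 with 0.985, and 0.63 with 0.716). With the second run alone the called members were Hspa1a at 0.78 (0.0226) and Hspa1b at 0.71 (0.0349), and Hsph1 was at 0.75 (0.0543). In that fit no member with a run of 3 units was called, Hsph1 included, and whether these units bear on the changes was not tested. Of the others with such a run, Hspe1 was at 0.36, Hspd1 at 0.17, Dnajb6 at 0.01 and Chordc1 at -0.18. Leaving out 1 library moved the count of 2 to between 0 and 4. It was 0 without WT CME(-) replicate 1, 3 or 4, Asbt-/- CME(-) replicate 2, WT CME(+) replicate 3 or 4, or Asbt-/- CME(+) replicate 3, with adjusted p up to 0.127 for Hspa1b and 0.126 for Hsph1. Without Asbt-/- CME(-) replicate 4, or Asbt-/- CME(+) replicate 2 or 4, it was 1. Without tCDCA replicate 3, which is in neither extract form but shares the estimate of spread, it was 4.

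Within a donor genotype no member passed in edgeR's model. For Asbt-/- extracts 0.0229% of all genes were called, and 8 members had an unadjusted p under 0.05 (7.11% of all genes), led by Hspa1b at 0.72 (adjusted p = 0.112) and Hspa1a at 0.80 (0.120). Without Asbt-/- CME(-) replicate 1 Hspa1a passed, at 1.08 (adjusted p = 0.0157). For WT extracts 0% of all genes were called, and 5 members had an unadjusted p under 0.05 (6.33% of all genes), led by Hsph1 at 0.59 (adjusted p = 0.538). DESeq2 called Hspa1a and Hspa1b for Asbt-/- extracts and no member for WT extracts, and with the donor animal as a replicate block edgeR called Hsph1 for WT extracts (0.72, adjusted p = 0.0495) and none for Asbt-/-. The difference between the donor genotypes in the effect of extract form was itself tested. No member passed, with 0% of all genes called, and 1 member, Chordc1 at -0.70, had an unadjusted p under 0.05 where 3.74% of all genes did. For the summed Hspa1 pair this difference was 0.36 (95% interval -0.17 to 0.88).

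**Figure D5:**
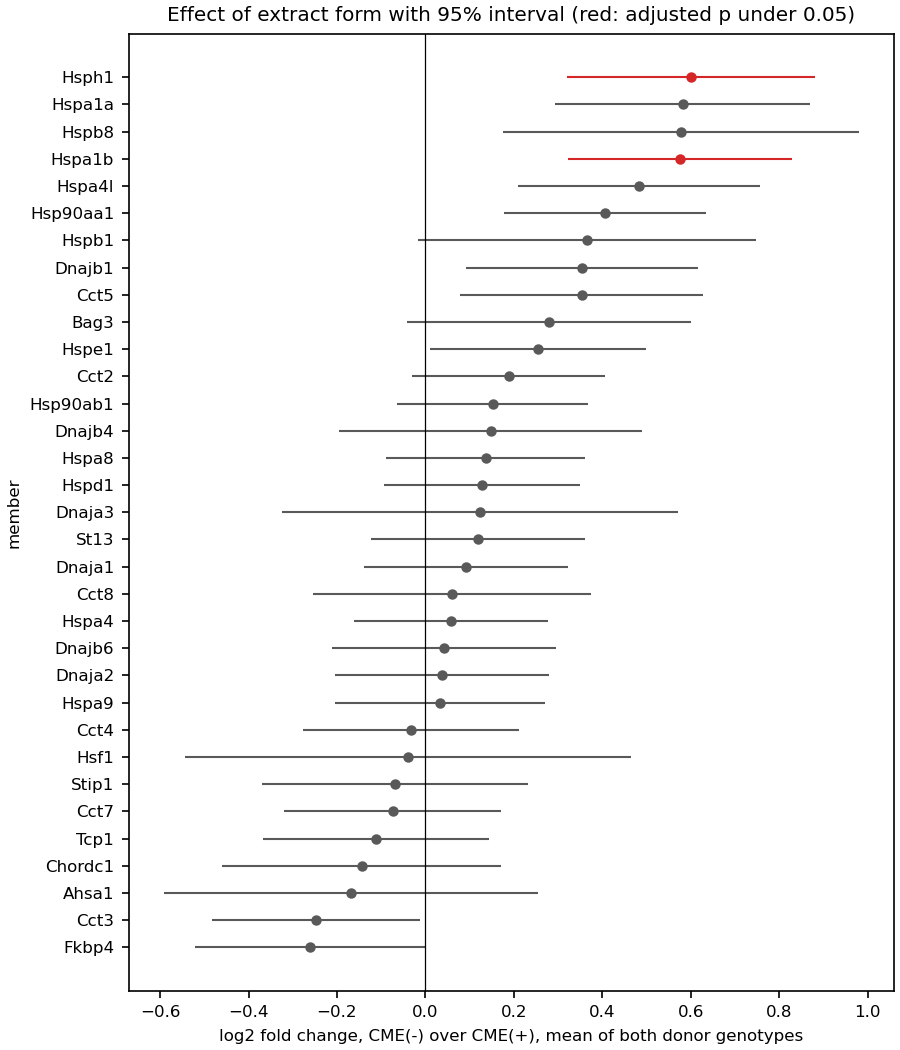
log2 fold change of CME(-) over CME(+), averaged over both donor genotypes, for each member with its 95% interval from the model on 21 libraries, in red where the adjusted p was under 0.05. Hsph1 at 0.60 and Hspa1b at 0.58 are called, Hspa1a and Hspb8 lie beside them, and Cct3 and Fkbp4 are at the lower end.

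Other measures differed between the extract forms as well. Mitochondrial rRNA held 24.6 to 31.9% of counts in second-run CME(-) libraries and 17.6 to 22.0% in CME(+) libraries, which do not overlap. The 10 smooth muscle markers summed to 1997 to 2629 CPM with Asbt-/- CME(-) against 1271 to 1476 with Asbt-/- CME(+), and to 1265 to 2169 with WT CME(-) against 1223 to 1399 with WT CME(+). All 10 were positive in the mean contrast, with a median of 0.55 log2 units, and 1 was called. The 6 Paneth cell markers summed to 35757 to 55580.4 CPM with Asbt-/- CME(-) against 25958 to 28793 with Asbt-/- CME(+), and to 34103 to 43118 with WT CME(-) against 28428 to 28744 with WT CME(+), with 0 of 6 called. Their part in the rise of Hspa1b and Hsph1 was not tested. Leaving the mitochondrial rRNA and the most abundant unnamed gene out of the counts gave the same 2 calls (adjusted p = 0.0232 for Hspa1b and 0.0356 for Hsph1), and with no scaling between libraries neither passed, the changes being 0.40 for Hspa1b and 0.42 for Hsph1.

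No member was called between donor genotypes within an extract form, by edgeR or by DESeq2. Asbt-/- CME(-) against WT CME(-) and Asbt-/- CME(+) against WT CME(+) each called 0% of all genes. At an unadjusted p under 0.05 there were 3 members for CME(-) (4.05% of all genes), Stip1, Hspa1a and Dnajb6, and 0 for CME(+) (4.24%). Set against the CME(-) extracts, tCDCA had no member called by either tool, where 0.541% of all genes were called against WT CME(-) and 0.114% against Asbt-/- CME(-). Each had 2 members with an unadjusted p under 0.05, Bag3 at -0.59 and Cct7 at 0.36 against WT CME(-) (10.7% of all genes), and Hspa1a at -0.57 and Hspa1b at -0.43 against Asbt-/- CME(-) (8.30%). For the summed Hspa1 pair the difference of tCDCA from WT CME(-) was -0.12 (95% interval -0.47 to 0.22) and from Asbt-/- CME(-) -0.49 (-0.86 to -0.12, adjusted p = 0.390).

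Of 62 further genes of the folding system, such as other J-proteins, prefoldin subunits and chaperones of the endoplasmic reticulum, 58 were tested. With tCDCA 3 of them rose and 1 fell against DMSO, 6.90% of the 58 where 5.68% of all genes were called, so the count is near the background. Cryab, the small HSP alpha-B-crystallin, rose by 1.03 ± 0.24 log2 units (adjusted p = 0.00519), Sqstm1, the autophagy receptor p62, by 0.75 ± 0.15 (adjusted p = 0.00115) and Cct6a, a further TRiC subunit gene, by 0.62 ± 0.18 (adjusted p = 0.0288). Hspa12a, a distant HSP70 relative, fell by 2.01 ± 0.34 (adjusted p = 0.000120). Hspa12a was also lower with Asbt-/- CME(-) at -1.61 (adjusted p = 0.0251), with Asbt-/- CME(+) at -1.18 (0.0441) and with WT CME(-) at -1.47 (0.0372). With Asbt-/- CME(+) the prefoldin gene Pfdn2 rose by 0.73 (adjusted p = 0.0421). All these comparisons use the same 3 DMSO libraries as those of the members. Values of these genes without DMSO replicate 3 or tCDCA replicate 3 are not given here. How far their calls rest on those libraries is therefore not known. None of the 58 passed with WT CME(+), where 6 had an unadjusted p under 0.05 (10.3%, against 10.0% of all genes). Between the extract forms none passed either, and 9 had such a p in the mean of both donor genotypes (15.5%, against 9.79% of all genes).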

How the data were processed

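The deposited values were raw counts, whole numbers for each gene in 24 libraries of mouse ileum, which the authors left without scaling. The submitters' processing notes name HISAT2, cutadapt, Picard and FastQC, and build GRCm39. Counter, strand use and annotation were not given in the sources used here. Symbols came from GENCODE M21 of build GRCm38, so no gene coordinates were printed from it, and promoter windows are RefSeq's for GRCm38.p6. The 3 libraries that the labels mark as removed stayed out.

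Tests ran under R 4.3.3 and edgeR 4.0.16, with filterByExpr, TMM scaling and 1 robust quasi-likelihood model over 21 libraries with terms for group and run, with 13 contrasts besides the run. P-values were adjusted by the Benjamini-Hochberg method over the 13125 genes tested, two-sided, and called under 0.05. DESeq2 1.42.0, other scalings, filters, subsets of libraries and blocks were alternatives. The code was tested on simulated data. Totals per library limit precision: 2.76 to 5.60 M counts.

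From replicate 2 on, libraries of the same donor genotype and number share a donor animal per the labels, which pairs CME(-) with CME(+); replicate 1 has no donor label. The log2 difference between WT replicates 3 and 4 in CME(-) correlated across genes with that in CME(+) at r = 0.0519. For Asbt-/- replicates 2 and 4 this correlation was -0.00847. Members and lists were chosen with earlier results of these data known. By rule, every member is named, values per library are given for members called in any contrast, for Hsf1 and for the Hspa1 pair, and other pathway genes are named where called.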

Additional observations from a re-analysis of the deposited data

Results flagged for a closer look

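In 102 tests of single libraries, 34 levels in each of the 3 groups of 4, 7 levels stood apart from the other 3 libraries of their group. Each such group holds 1 first-run library and 3 second-run libraries, and many levels differed between the runs. The rate of 1 in 20 that chance would give among like libraries therefore does not apply. A flag of a first-run library cannot be told apart from the difference between runs, and Dnaja2 is a member whose runs did not overlap. In the first run, Dnaja1 was low at 72.4 CPM in WT CME(-) replicate 1 (the others 110.4 to 114), Dnaja2 low at 100.2 CPM in Asbt-/- CME(+) replicate 1 (the others 183 to 187) and Chordc1 high at 40.3 CPM in tCDCA replicate 1 (the others 20.0 to 21.2). In the second run, Dnaja3 was high at 23.0 CPM in tCDCA replicate 3 (the others 9.11 to 11.3) and at 18.6 CPM in WT CME(-) replicate 2 (the others 10.8 to 12.0). Cct2 was high at 115.6 CPM in Asbt-/- CME(+) replicate 2 (the others 111 to 111.4) and Cct7 high at 77.2 CPM in WT CME(-) replicate 2 (the others 60.4 to 62.7).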

How the results depend on the processing

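Counts of members called at an adjusted p under 0.05 moved with the processing. Over all alternatives 276 values of the 13 called changes kept the call and 180 did not. None turned its direction, but the changes were chosen for a small p and the alternatives share most libraries, so this was nearly fixed in advance. Against DMSO the reported counts were 5 for tCDCA, 3 for Asbt-/- CME(-), 3 for Asbt-/- CME(+), 0 for WT CME(-) and 0 for WT CME(+). All 5 were 0 with no run term, with all 24 libraries, with DMSO replicate 1 added and without DMSO replicate 3. With the compared groups alone they were 0, 0, 1, 0 and 0, with no scaling factors 1, 0, 3, 0 and 0, and with the second run alone 2, 0, 2, 0 and 0. DESeq2 gave 7, 4, 6, 2 and 1. Shares of all genes called at the alternative settings are not given here, so these counts have no background beside them. Without the count filter Asbt-/- CME(-) had 6. Leaving out 1 library at a time gave 0 to 6 for tCDCA, 0 to 5 for Asbt-/- CME(-), 0 to 4 for Asbt-/- CME(+), 0 to 1 for WT CME(-) and 0 for WT CME(+). Without both tCDCA replicate 3 and DMSO replicate 3, a setting chosen after seeing the data, all 5 were 0.

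For CME(-) against CME(+) in the mean of both donor genotypes the reported count of 2 was 5 with DESeq2, 0 with no scaling factors, 0 with no run term, 4 with the compared groups alone, 2 with the second run alone (Hspa1a in place of Hsph1) and 4 without both doubtful libraries, and 0 to 4 without 1 library. For Asbt-/- extracts the count of 0 was 2 with DESeq2, 2 without the count filter, 1 with the compared groups alone, 1 without both doubtful libraries and 0 to 1 without 1 library. For WT extracts it stayed 0 without 1 library, as did the contrasts of donor genotypes, their difference and tCDCA against WT CME(-); tCDCA against Asbt-/- CME(-) reached 1 without Asbt-/- CME(-) replicate 1. The cause of these moves was not tested. With no scaling the members' median between extract forms was -0.05 (all genes -0.18) in place of 0.12.

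A replicate block over all groups, by replicate number, gave 3 for tCDCA, 1 for Asbt-/- CME(-), 2 for Asbt-/- CME(+) and 0 for the mean extract contrast. The replicate block by extract donor gave 5 for the mean extract contrast, 1 for WT extracts and 0 for Asbt-/- extracts, and it changed no other call it could be fitted to.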
